A study of Mus musculus with 27 samples.

Results

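The islets of 6 female NOD mice aged 8 weeks carried very different amounts of T cell transcript, and the 6 mice together form a gradient. The gradient is taken here as a measure of T cell infiltration. They are the 6 NOD arrays of 8 weeks among the 27 arrays of the series, with 1 array per mouse. Each array was scored by the mean log2 value of 3 genes, Cd3g, Cd3d and Cd3e, which encode the gamma, delta and epsilon chains of the CD3 complex through which the T cell receptor signals. Every other gene was then related to this Cd3 score over the 6 mice, to find which transcripts of immune, beta and exocrine cells followed it and which did not. The values of the 3 Cd3 genes chose the score, so they are given as a description and are not tested.

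The series measured RNA from islets of Langerhans in untreated female mice of the NOD/ShiLt strain, kept free of specific pathogens. Besides NOD it holds NOD.Batf3-/- and NOD.Rag1-/- mice, with 3 mice per genotype at 6 weeks and 6 at 8 weeks, and the 6-week arrays are not used here. NOD.Rag1-/- mice (Rag1ko) lack Rag1 in all cells, and without it T and B cells do not mature, while natural killer and myeloid cells remain. NOD.Batf3-/- mice (Batf3ko) lack in all cells a transcription factor that cross-presenting dendritic cells need. The 6 Rag1ko mice of 8 weeks give a background level for islets without T and B cells, and the fit on the score was repeated within them and within Batf3ko. All values are log2 values that the authors normalized across arrays.

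NOD mice develop autoimmune diabetes spontaneously. Leukocytes first gather beside the islets and then enter them, a process called insulitis, and this happens at different times in different animals and islets. T cells, B cells, macrophages and dendritic cells take part, interferon-gamma from T and natural killer cells induces chemokines and the machinery of antigen presentation in the cells around them, and older infiltrates can take on features of a lymph node.

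The table gave a value for 19938 genes in each array, and with the 3 Cd3 genes set aside 19935 genes were tested. The medians of the 6 NOD arrays over all probe sets lay between 4.92 and 5.05, and the correlations between these arrays over probe sets between 0.9812 and 0.9911. Islet hormones were at the top of the scale in every NOD mouse, with Ins2 (insulin) between 12.46 and 12.61 and Gcg (glucagon) between 13.00 and 13.14. The probe set of Rag1 read 2.52 to 3.02 in the NOD mice and 3.45 to 3.79 in the Rag1ko mice, so it does not show the deletion. Acinar cells, the enzyme-producing cells of the exocrine pancreas, contributed unequal amounts of transcript: the mean of 27 acinar genes ran from 6.86 in mouse 4 to 8.96 in mouse 2. With 6 arrays in all, the precision of each slope is limited by their small number.

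The Cd3 score was 4.25 in mouse 3, 4.77 in mouse 4, 4.94 in mouse 2, 5.91 in mouse 1, 6.88 in mouse 6 and 7.17 in mouse 5. Its mean was 5.66 ± 1.19 (SD, 6 mice), and its range of 2.92 log2 units is a 7.56-fold difference on the linear scale. Mice 5 and 6 were the high end, mouse 1 stood between, and mice 2, 3 and 4 were the low end. The largest gap between neighbours was 0.97, or 33.2% of the range, so the mice were treated as 1 gradient and not as 2 clusters. Cd3g read 4.25, 4.82, 5.08, 6.48, 7.13 and 7.72 in the order of the score, Cd3d 3.20, 4.07, 3.93, 5.01, 6.30 and 6.25, and Cd3e 5.31, 5.41, 5.82, 6.25, 7.21 and 7.55. The 3 genes ordered the mice alike apart from 2 near ties in Cd3d, and the correlation between any 2 of them was between 0.967 and 0.977. All 6 NOD mice, mouse 3 included, were above the highest score of the other genotypes of 8 weeks, which was 3.71 in Batf3ko (median 3.48) and 3.76 in Rag1ko (median 3.46).

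**Figure D1:**
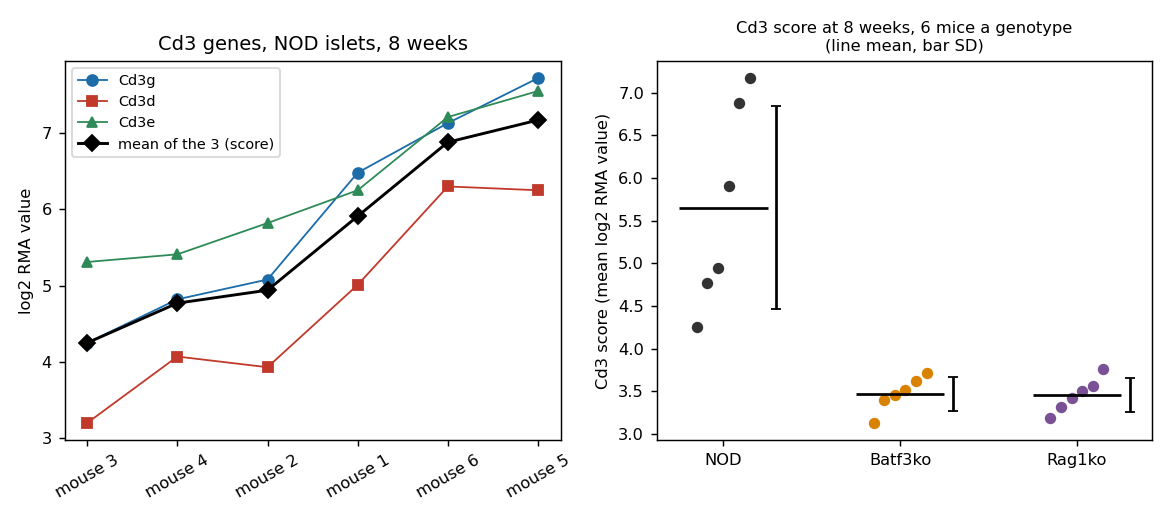
Left, log2 values of Cd3g, Cd3d, Cd3e and their mean in the 6 NOD mice of 8 weeks, placed in the order of the mean; right, the mean of the 3 genes in each mouse of the 3 genotypes at 8 weeks, with a line at the group mean and a bar for the SD. The score climbs from 4.25 in mouse 3 to 7.17 in mouse 5, while the Batf3ko and Rag1ko mice all lie below 3.77.

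Many genes of leukocytes rose along the gradient, and few genes fell. The slope of a gene is its change in log2 units for each log2 unit of the Cd3 score, given with its standard error: a slope of 1 means that the gene moved as much as the Cd3 genes did. By limma, with Benjamini-Hochberg adjustment over all 19935 genes at 0.05, 403 genes rose with the score (2.02% of all genes tested) and 22 fell (0.11%), together 425 (2.13%). The median slope of the 403 was 0.51, against -0.01 for all genes, and their Pearson r with the score was between 0.85 and 1. In 386 of the 403, mice 5 and 6 were both above the other 4 mice, and in 331 mouse 3 was the lowest; over all genes the same was true of 1795 and 3549. Mouse 1, the third in the score, came next after mice 5 and 6 in 288 of the 403, and in 663 of all genes. The 403 were chosen for following the score, so these counts are partly fixed by the choice. These are values of whole islet preparations, in which fewer cells of a type and less RNA per cell cannot be told apart.

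The calls depended on mice at both ends of the gradient. Among mice 1 to 4 alone, whose scores ran from 4.25 to 5.91, r was positive in 402 of the 403 genes (median 0.87) and negative in all 22 that fell (median -0.88), where the median of all genes was 0.01. The 403 and the 22 were chosen on all 6 mice, so these signs are partly fixed by the choice. The order of mice 1 to 4 was that of the score in 142 of the 403 (35.2%) and in 5.67% of all genes. A fit without mice 5 and 6 called 0 genes by limma (no other pair was left out), and leaving out 1 mouse left 145 genes that rose without mouse 3, 162 without mouse 5, 172 without mouse 6 and at most 453; of the 403, 105 passed in all 6 such fits, and all 403 kept a positive slope in all 6. With a term for the number of the mouse (1 to 3 against 4 to 6, which puts both top mice in 1 set) 138 genes rose and 3 fell, and all 425 kept their sign; without dim genes 255 rose. An exact permutation test of single genes over the 720 orders of the mice, two-sided, cannot go below 0.0014 for r and 0.0028 for Spearman's rho. After adjustment over all genes it called 0 genes by either measure. By r, 1993 genes had an unadjusted exact p under 0.05, 1068 with positive (5.36%) and 925 with negative r (4.64%). That threshold covers both directions together. The counts of genes with the same order as the score (rho 1) and the opposite order (rho -1) were 80 (0.401%) and 73 (0.366%), and 57 of the 80 were among the 403. The same fit of each gene on the Cd3 score within the 6 Rag1ko and within the 6 Batf3ko mice, whose scores span 0.57 and 0.58, called 0 and 0 genes by limma (982 and 1312, or 4.93% and 6.58%, at an unadjusted p under 0.05, against 2130 or 10.7% in NOD).

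Of the 10 genes most like the score by r, with immunoglobulin genes and predicted genes left out, the first was Cxcr4. Ighm, the heavy chain of immunoglobulin M, was so left out, with an r of 1 and a limma adjusted p of 0.002. Cxcr4, the receptor for the chemokine CXCL12, read 6.45, 6.83, 6.96, 7.48, 8.31 and 8.51 from the mouse with the lowest score to that with the highest. Its r and rho were both 1 (exact permutation p 0.0014 and 0.0028, each the smallest possible, and 0.30 and 0.36 after adjustment), its r without mice 5 and 6 was 0.99 and its slope 0.70 ± 0.05 (limma adjusted p 7.5e-04). The others were Lat, an adaptor of the T cell receptor, Wipf1, a partner of the Wiskott-Aldrich syndrome protein, the leukocyte surface proteins Cd52 and Cd53, Trim30d, Ablim1, the chemokine Ccl12, the calcium-binding protein S100a6 and Slc9a9, all with r of at least 0.99. Ablim1 and Slc9a9 kept the order closely but moved little, with slopes of 0.10 ± 0.05 and 0.16 ± 0.05, and did not pass (limma adjusted p 0.50 and 0.21).

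Cd52, Cd53 and Ptprc, which most leukocytes express, had slopes near that of the score itself. Cd52 read 6.55, 7.18, 7.57, 8.52, 9.63 and 9.62 in the order of the score, and even mouse 3 was above the Rag1ko mice, which ran from 4.65 to 5.48. Its slope was 1.08 ± 0.06 and that of Cd53 1.17 ± 0.07 (both limma adjusted p 2e-04). Ptprc, the common leukocyte antigen CD45, ran from 5.07 in mouse 3 to 8.44 in mouse 5 with a slope of 1.05 ± 0.07. These slopes are near 1, so the transcripts moved about as much as the Cd3 genes did.

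**Figure D2:**
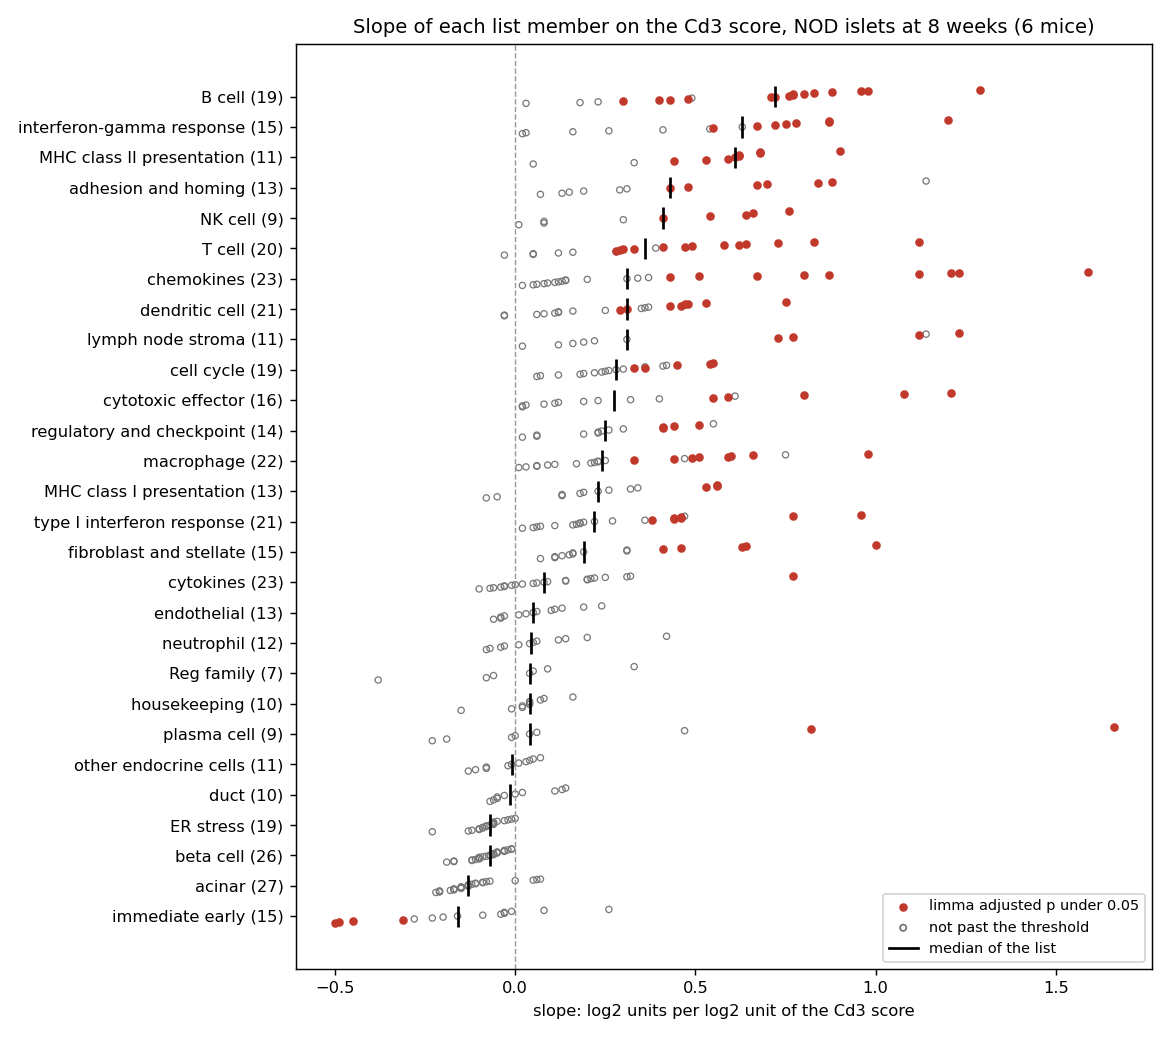
Slope of each member of the 28 gene lists on the Cd3 score in the 6 NOD mice, in log2 units per log2 unit of score, with the number of genes tested in brackets; filled points passed limma's adjusted p of 0.05, open points did not, and the black line is the median of the list. The B cell list has the highest median (0.72) and the immediate early list the lowest (-0.16), and the beta cell points all lie just below 0.

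T cell genes followed the score beyond the 3 genes that define it. Of 20 other T cell genes tested 13 rose (background 2.02%) and 0 fell, with a median slope of 0.36. Cd2, an adhesion receptor of T and natural killer cells, read 3.27, 4.40, 4.71, 6.05, 6.52 and 6.76 in the order of the score and rose with a slope of 1.12 ± 0.10 (limma adjusted p 0.0013); only mouse 3 lay inside the Rag1ko range of 3.28 to 3.99 or below it. Thy1 (0.83 ± 0.12), the costimulatory receptor Cd28 (0.73 ± 0.07) and Lat (0.64 ± 0.05) rose as well. Both co-receptors rose, Cd4 with a slope of 0.62 ± 0.07 and Cd8a with one of 0.58 ± 0.09. Cd4 kept the order of the score in all 6 mice, while for Cd8a mouse 6 (6.16) was above mouse 5 (6.05) and mouse 2 (5.11) above mouse 1 (4.93). Cd8b1, the other chain of CD8, had a slope of 0.39 ± 0.12 that did not pass (limma adjusted p 0.21). Cd247, which encodes the zeta chain of the same receptor complex, stayed between 4.29 and 4.99 and did not pass either (0.16 ± 0.07). Of the 13 calls 6 held in every fit without 1 mouse, Cd2, Cd4 and Lat among them, and that of Cd8a was lost without mouse 3, 5 or 6.

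Of 16 genes of cytotoxic lymphocytes 5 rose and 0 fell (median slope 0.28). The chemokine Ccl5 read 5.66 in mouse 3, 6.58, 7.57 and 7.78 in mice 4, 2 and 1, 9.75 in mouse 6 and 9.11 in mouse 5, with a slope of 1.21 ± 0.14; every NOD mouse was above the highest Rag1ko value of 5.09. Nkg7, a protein of cytotoxic granules, ran from 3.68 to 7.94 (1.08 ± 0.19), and Xcl1, a chemokine that draws cross-presenting dendritic cells, from 4.75 to 7.21 (0.80 ± 0.06). Ctsw and the receptor Cxcr3 were the other members that rose. Granzyme B (Gzmb) stayed between 2.39 and 2.93, inside or just below the Rag1ko range of 2.46 to 2.97, with a slope of 0.11 (95% interval -0.05 to 0.27). Perforin (Prf1) stayed between 4.44 and 4.78 (0.08, -0.05 to 0.21), also within the Rag1ko range. Ifng itself ran from 3.84 in mouse 4 to 5.09 in mouse 6, with a slope of 0.32 (0.12 to 0.52) that did not pass over all genes (limma adjusted p 0.16).

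Of 14 genes of regulatory T cells and checkpoints 4 rose and 0 fell (median slope 0.25). The inhibitory receptor Ctla4 read 4.0 in mouse 3 and 5.70 in mouse 5 (0.51 ± 0.07), Cd274, the ligand PD-L1, 6.66 in mouse 2 and 8.01 in mouse 6 (0.44 ± 0.08), and Icos and Lag3 both had slopes of 0.41. Tigit had the highest slope of the list but did not pass (0.55 ± 0.12, limma adjusted p 0.058), and mouse 1 had the highest value of the 6 mice, 6.41. Foxp3, the factor that defines regulatory T cells, stayed between 4.39 and 4.73 and had a slope of 0.06 (95% interval -0.06 to 0.18). Its probe set read 4.34 to 4.54 in the Rag1ko mice, so the NOD values lay near the level without T cells. None of the 4 calls held in every fit without 1 mouse.

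Of 9 natural killer cell genes 5 rose and 0 fell (median slope 0.41): Il2rb, a receptor chain for interleukins 2 and 15 (0.76 ± 0.11), Klrc1, Tyrobp, Klrd1 and Fcer1g. Several of these also mark other cells, since Il2rb is found on T cells and Tyrobp and Fcer1g in myeloid cells. Only 1 of the 5 calls held in every fit without 1 mouse, that of Tyrobp. Ncr1, which is close to restricted to natural killer cells, stayed between 2.23 and 2.86 (0.08 ± 0.07), and the Rag1ko mice, which keep natural killer cells, read 2.12 to 2.55.

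B cell genes had the highest median slope of any list. Of 19 genes 15 rose and 0 fell, with a median slope of 0.72 against 0.36 for the T cell genes; the difference between the lists was not tested. Cd79b, a signalling chain of the B cell receptor, read 3.64, 4.05, 4.08, 4.82, 6.94 and 7.29 in the order of the score, a slope of 1.29 ± 0.11 (limma adjusted p 9e-04). Mice 2, 3 and 4 were within the Rag1ko range of 3.63 to 4.22, mouse 1 was just above it, and mice 5 and 6 stood far above. Ms4a1, which encodes CD20, had the same shape, with 2.88 to 3.30 in mice 2, 3 and 4, 3.88 in mouse 1, 5.13 in mouse 6 and 6.06 in mouse 5 (0.98 ± 0.13, Rag1ko 2.98 to 3.55). Spib (0.96 ± 0.11), Fcer2a (0.88 ± 0.08), Bank1 (0.83 ± 0.07) and Cd22 (0.71 ± 0.06) rose as well. Cd79a (0.49 ± 0.14, limma adjusted p 0.15), Blk, Fcrla and the lineage factor Pax5 (0.03 ± 0.07) did not pass. The mean of the list was 3.62 to 3.86 in mice 2, 3 and 4 beside 3.61 to 3.71 in the Rag1ko mice, 4.15 in mouse 1, 5.12 in mouse 6 and 5.52 in mouse 5. Of the 15 calls 7 held in every fit without 1 mouse, among them Cd79b and Ms4a1.

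Jchain, the joining chain of secreted immunoglobulin M and A and a transcript of plasma cells, had the highest slope of all named genes, 1.66 ± 0.27 (limma adjusted p 0.013). It read 2.97 in mouse 3, 5.39 in mouse 2, 6.77 in mouse 4, 7.23 in mouse 1, 8.61 in mouse 6 and 8.87 in mouse 5. Mouse 3 was inside the Rag1ko range of 2.26 to 3.07 and every other NOD mouse far above it, so Jchain separated the mice at the low end that Cd79b and Ms4a1 did not. Its call was lost without mouse 5 or mouse 6. Mzb1, a chaperone of antibody-secreting cells, was the other of 9 plasma cell genes that rose (0.82 ± 0.13), and 0 fell. The list as a whole did not follow the score: its median slope was 0.04, with 6 slopes positive and 3 negative. Derl3 had the most negative slope (-0.23 ± 0.07) and did not pass (limma adjusted p 0.17). Xbp1 and Prdm1, which islet or other cells express as well, had slopes of -0.01 ± 0.05 and 0.00 ± 0.05.

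Of 22 macrophage genes 8 rose and 0 fell (median slope 0.24), and all 22 slopes were positive (8793 of 19935 over all genes). Lyz2, the lysozyme of myeloid cells, read 7.56, 8.66, 8.79, 9.78, 10.66 and 10.51 in the order of the score (0.98 ± 0.09, limma adjusted p 0.0012), and all 6 mice were above the highest Rag1ko value of 6.82. Aif1 ran from 5.34 to 7.51 (0.66 ± 0.08) and Cd68, a lysosomal protein of macrophages, from 6.05 to 7.81 (0.51 ± 0.09). The complement genes C1qa, C1qb and C1qc, the protease Ctss and the growth factor receptor Csf1r were the other members that rose. Adgre1, which encodes F4/80, had a slope of 0.23 ± 0.10 and Cd163 one of 0.01 ± 0.05, and neither passed. Of the 8 calls 2 held in every fit without 1 mouse, those of Lyz2 and Aif1. Of 12 neutrophil genes 0 rose and 0 fell by limma (1 of 12 at an unadjusted p under 0.05), and S100a8 and S100a9 stayed below 3.94 in every mouse.

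Of 21 dendritic cell genes 8 rose and 0 fell (median slope 0.31). The steepest were Wdfy4, which cross-presentation needs (0.75 ± 0.11), the integrin Itgae (0.53 ± 0.07), the maturation marker Cd83 (0.48 ± 0.08) and the cytokine receptor Flt3 (0.47 ± 0.06). Xcr1, the receptor for XCL1 on cross-presenting cells, ran from 2.86 to 3.77 (0.31 ± 0.06) within the Rag1ko range of 3.19 to 4.20 or below it. Batf3 ran from 4.22 in mouse 2 to 5.11 in mouse 6 and did not pass (0.16 ± 0.08), nor did Clec9a (0.12 ± 0.09). Only 1 of the 8 calls held in every fit without 1 mouse.

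Most genes of antigen presentation by MHC class II rose. Of 11 genes 9 rose and 0 fell, with a median slope of 0.61. H2-Aa, the alpha chain of I-A, read 7.09, 7.83, 8.16, 8.33, 8.93 and 9.23 in the order of the score (0.62 ± 0.08, limma adjusted p 0.0043), and the lowest of them was above the highest Rag1ko mouse (6.37). Cd74, the invariant chain, ran from 8.76 to 10.87 (0.62 ± 0.08), H2-Ab1 from 7.73 to 10.08 (0.68 ± 0.09), and H2-Oa, which modulates peptide loading in B cells, from 3.75 to 6.48 (0.90 ± 0.11). Ciita, the master regulator of the class II genes, rose by 0.44 ± 0.07. H2-Ea, whose promoter is defective in NOD mice, read 2.65 to 3.00 in the NOD and 2.57 to 3.07 in the Rag1ko mice (0.05 ± 0.06). Of 13 genes of class I presentation 3 rose (Tap1, Psmb9 and Psmb8, with slopes of 0.53 to 0.56) and 0 fell. B2m, the light chain of class I, ran from 10.82 to 12.09 and just missed the threshold (0.34 ± 0.07, limma adjusted p 0.058); none of the 3 class I calls held in every fit without 1 mouse, and 4 of the 9 class II calls did.

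**Figure D3:**
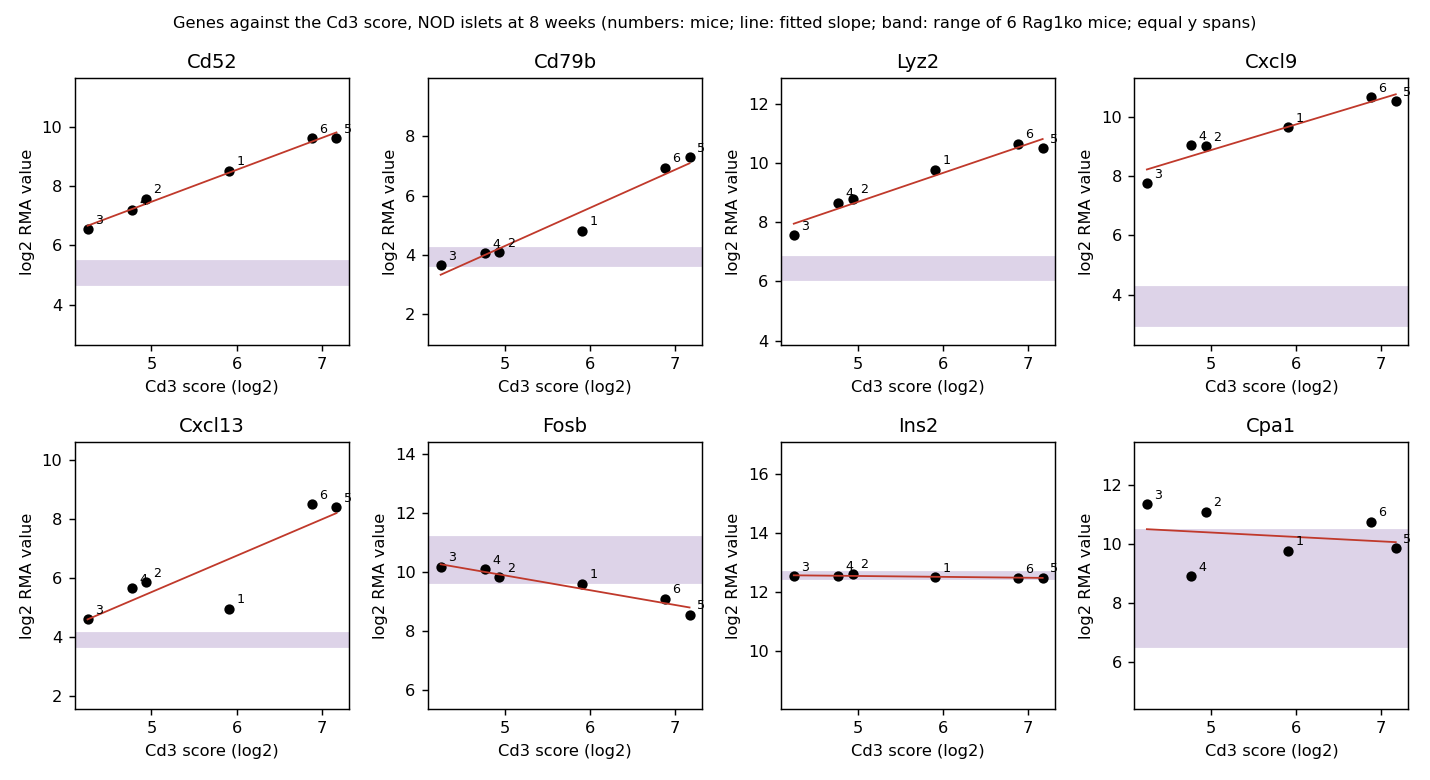
Log2 values of 8 genes in the 6 NOD mice against the Cd3 score, with the fitted line and, as a band, the range of the 6 Rag1ko mice of 8 weeks; each panel spans the same height in log2 units. Cd52, Lyz2 and Cxcl9 are above the band in all 6 mice, Cd79b leaves it at mouse 1, Fosb is below it from mouse 1 on, and Ins2 is flat.

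Of 15 genes that interferon-gamma induces 8 rose and 0 fell, with a median slope of 0.63. Of these 8, 7 were above the highest Rag1ko mouse in every NOD mouse, and Ubd was not: mouse 3 (3.11) lay inside its Rag1ko range of 2.57 to 3.46. Over all genes tested, 13.7% to 17.7% were above the highest Rag1ko mouse in a single NOD mouse. The share of all genes above it in every NOD mouse was not counted. Cxcl9, a chemokine that attracts activated T cells through CXCR3, read 7.77, 9.05, 9.02, 9.65, 10.67 and 10.54 in the order of the score (0.87 ± 0.10, limma adjusted p 0.0026), against 2.94 to 4.25 in the Rag1ko mice. Mouse 3, whose Cd79b and Jchain were at the Rag1ko level, had Cxcl9 at 7.77. Cxcl10, which signals through the same receptor, ran from 7.26 to 9.32 (0.67 ± 0.13; Rag1ko at most 5.56), the guanylate-binding protein Gbp4 from 6.04 to 8.96 (0.87 ± 0.12), and the GTPase Iigp1 from 6.09 to 8.71 (0.78 ± 0.15). Ubd, a ubiquitin-like protein, was the steepest (1.20 ± 0.18) and ran from 3.11 in mouse 3 to 7.50 in mouse 5. Mouse 2, with a lower score than mouse 1, was above it in Cxcl10, Gbp4, Iigp1, Ubd, Gbp3 and Irgm1. In Cxcl9 and Gbp5 mouse 1 was the higher. Among mice 1 to 4 the median r of the list was 0.44, against 0.9 for the T cell list and 0.01 for all genes. Irf1 (0.26 ± 0.07) and Socs1 (0.02 ± 0.05) did not pass. Only the call of Cxcl9 held in every fit without 1 mouse; that of Cxcl10 was kept without mouse 2 alone.

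The starts of some of these genes are shown because 8 members of the list rose together and the list shares a known kind of input: genes that interferons induce often carry the motifs called ISRE and GAS near their starts. RefSeq windows of 300 bases (GRCm38.p6), 250 before to 50 after a gene's start, were searched on both strands for GAAA followed by any 2 bases and again GAAA, as a core of the ISRE, and for TTCNNNGAA, as the GAS; capitals mark a match of either, and matches that overlap run together. The first 3 were taken by a rule on the list (Cxcl9, Cxcl10 and the member with the highest slope), and Gbp5 was chosen after the windows were seen. Cxcl9 lies at chr5:92328030-92328329 on the minus strand, Cxcl10 at chr5:92348840-92349139 on the minus strand, Ubd at chr17:37193642-37193941 on the plus strand and Gbp5 at chr3:142496684-142496983 on the plus strand.
Cxcl9: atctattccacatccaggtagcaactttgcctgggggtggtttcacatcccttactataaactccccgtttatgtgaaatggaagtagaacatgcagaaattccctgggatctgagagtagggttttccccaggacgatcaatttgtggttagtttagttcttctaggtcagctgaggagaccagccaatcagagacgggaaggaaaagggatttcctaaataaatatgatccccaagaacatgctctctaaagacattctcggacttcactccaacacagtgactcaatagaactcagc
Cxcl10: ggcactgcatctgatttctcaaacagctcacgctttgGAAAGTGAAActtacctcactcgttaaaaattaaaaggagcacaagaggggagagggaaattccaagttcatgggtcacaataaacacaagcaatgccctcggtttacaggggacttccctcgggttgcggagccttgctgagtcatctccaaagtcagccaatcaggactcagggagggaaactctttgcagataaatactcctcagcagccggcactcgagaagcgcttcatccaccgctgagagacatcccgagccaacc
Ubd: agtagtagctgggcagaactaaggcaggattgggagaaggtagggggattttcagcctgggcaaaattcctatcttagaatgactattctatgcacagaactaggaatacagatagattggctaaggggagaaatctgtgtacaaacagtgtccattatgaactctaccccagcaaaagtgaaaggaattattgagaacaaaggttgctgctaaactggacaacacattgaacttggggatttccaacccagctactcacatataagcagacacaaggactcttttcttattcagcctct
Gbp5: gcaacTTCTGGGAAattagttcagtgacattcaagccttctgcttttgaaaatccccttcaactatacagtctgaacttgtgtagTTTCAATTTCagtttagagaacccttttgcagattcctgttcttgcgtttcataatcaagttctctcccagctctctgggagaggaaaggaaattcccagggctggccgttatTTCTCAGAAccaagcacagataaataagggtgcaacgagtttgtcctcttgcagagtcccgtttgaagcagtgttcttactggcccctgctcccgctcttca
The window of Cxcl10 holds 1 ISRE core, at base 38, and that of Gbp5 holds 1 ISRE core at base 86 and 2 GAS, at bases 6 and 199. The windows of Cxcl9 and Ubd hold neither string, which says only that these letters are not in these windows. Over 12 windows of 10 tested members of the list, 7 held the ISRE core (58.3%) and 4 the GAS (33.3%), members that did not pass, such as Socs1, included, against 3.27% and 7.66% of the 19174 windows of all genes tested. Over the 380 windows of 292 genes that rose with the score the shares were 8.68% and 9.21%, and over 23 windows of 20 beta cell genes both were 4.35%. A match is a description of the sequence and not evidence of a site in use.

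Of 21 genes of the type I interferon response 7 rose and 0 fell (median slope 0.22, beside 0.63 for the interferon-gamma list; the difference was not tested). Ifi27l2a, an interferon-induced membrane protein, ran from 5.44 to 8.10 (0.96 ± 0.07), and Zbp1, a sensor of nucleic acids, from 4.36 to 6.94 (0.77 ± 0.12). Ifit1, Ifit3, Rtp4, Oasl2 and Oas2 rose with slopes of 0.38 to 0.46. Mx1 and Usp18 had slopes of 0.02 ± 0.06 and 0.06 ± 0.05, and Ifit1 in NOD (4.05 to 5.64) overlapped the Rag1ko range of 4.12 to 5.24. Only 1 of the 7 calls held in every fit without 1 mouse.

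Chemokines rose in a subset: 9 of 23 genes rose and 0 fell (median slope 0.31), and 6 of the 9 calls held in every fit without 1 mouse. Ccl8, a chemokine for monocytes and T cells, had the highest slope of the list, 1.59 ± 0.12 (limma adjusted p 7.5e-04), with 2.97, 4.25, 4.24, 6.22, 7.89 and 7.24 in the order of the score. Mouse 3 was inside the Rag1ko range of 2.36 to 3.33 and mice 5 and 6 far outside it. Ccl19, which guides T cells and dendritic cells through CCR7, read 6.07 in mouse 3, 8.43 to 9.12 in mice 2, 4 and 1, and 10.24 and 10.08 in mice 6 and 5 (1.12 ± 0.20); its call was lost without mouse 5 or 6. Cxcl16 (0.51 ± 0.07) and Ccl12 (0.43 ± 0.05) rose as well. The neutrophil chemokines Cxcl1 and Cxcl2 (0.08 ± 0.05 and 0.05 ± 0.14) and the macrophage chemokine Ccl3 (0.02 ± 0.09) did not pass. Of 23 cytokines 1 rose, the lymphotoxin subunit Ltb (4.06 to 6.42, 0.77 ± 0.08), and 0 fell. Il1b, which ran from 5.81 in mouse 3 to 6.92 in mouse 1, had a slope of 0.20 ± 0.10, and Il21 one of 0.31 ± 0.09 at values of 2.21 to 3.41.

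Cxcl13, Cr2 and Mfge8, genes of lymph node stroma, were high in mice 5 and 6 and showed no climb among the other 4 mice, whereas Ccl19, the other member of the list that rose, climbed among them as well (r 0.81). Of 11 genes of lymph node stroma 4 rose and 0 fell (median slope 0.31). Cxcl13, the chemokine that organizes B cell follicles, read 4.60 to 5.86 in mice 1 to 4 with no order by score (r 0.08 among them), and 8.50 and 8.39 in mice 6 and 5 (1.23 ± 0.24). Cr2, a complement receptor of B cells and follicular dendritic cells, stayed between 2.77 and 2.95 in mice 1 to 4, about the Rag1ko level of 2.37 to 2.90, and was 4.42 and 5.20 in mice 6 and 5 (0.77 ± 0.14). Mfge8, which follicular dendritic cells secrete, read 6.04 to 6.53 in mice 1 to 4 and 7.92 and 8.33 in mice 6 and 5 (0.73 ± 0.14). Glycam1, a ligand for L-selectin on high endothelial vessels, read 4.60 in mouse 1, 5.09, 5.73 and 6.60 in mice 3, 2 and 4, and 8.48 and 8.95 in mice 6 and 5, and did not pass (1.14 ± 0.33, limma adjusted p 0.17). Of the 403 genes that rose, 24 had an r between 0 and 0.5 among mice 1 to 4 and 1, Mfge8, an r below 0, whereas 161 had one of 0.9 or more. Over all 19935 genes these counts were 4358, 9848 and 1411. The 403 were chosen on all 6 mice, so their counts are partly fixed by the choice. None of the 4 calls of the list held in every fit without 1 mouse, and all 4 were lost without mouse 5 and without mouse 6.

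Some adhesion ligands and their receptor chains rose. Which cells expressed them cannot be told from whole islet preparations. Of 13 genes 6 rose and 0 fell (median slope 0.43), and 4 of the 6 calls held in every fit without 1 mouse. Vcam1, an endothelial ligand for the integrin VLA-4, read 4.21 in mouse 3, 5.15 to 5.44 in mice 4, 1 and 2, and 6.82 and 7.15 in mice 6 and 5 (0.88 ± 0.10), and Itga4, a chain of that integrin, 4.40 to 4.98 in mice 1 to 4 and 6.03 and 6.42 in mice 6 and 5 (0.67 ± 0.09). Icam1 rose by 0.43 ± 0.06, and its receptor chains Itgb2 and Itgal by 0.70 ± 0.09 and 0.48 ± 0.07. Madcam1, the gut-type homing ligand, ran from 3.57 to 4.93 and did not pass (0.31 ± 0.09). Of 13 endothelial genes 0 rose and 0 fell by limma (2 of 13 at an unadjusted p under 0.05), with Kdr, a receptor for vascular endothelial growth factor, between 7.12 and 7.43 in all 6 mice.

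Of 15 genes of fibroblasts and stellate cells 5 rose and 0 fell (median slope 0.19). Decorin (Dcn) read 4.98 in mouse 3, 6.88, 7.50 and 8.26 in mice 2, 4 and 1, and 8.57 and 8.60 in mice 6 and 5 (slope 1.0 ± 0.20), so mouse 1 was nearly as high as the top 2. Vim (0.64 ± 0.09), Lum (0.63 ± 0.09), Pdgfra (0.46 ± 0.07) and Fn1 (0.41 ± 0.09) rose, and the collagens Col1a1 (0.11 ± 0.08) and Col3a1 (0.19 ± 0.11) and the smooth muscle actin Acta2 (0.07 ± 0.07) did not pass. The values do not show whether fibroblasts or other cells of the preparation expressed the genes that rose. Of 19 cell cycle genes 5 rose and 0 fell: Ccnb2 (0.55 ± 0.07), Top2a (0.54 ± 0.11), Cdk1, Ccna2 and Plk1. The median slope was 0.28, and all 19 slopes were positive (8793 of 19935 over all genes). Mki67 ran from 3.75 to 5.59 with mouse 2 (5.26) above mouse 6 (5.20), and did not pass (0.42 ± 0.13). None of the 5 calls of the fibroblast and stellate list and 1 of the 5 cell cycle calls held in every fit without 1 mouse.

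**Figure D4:**
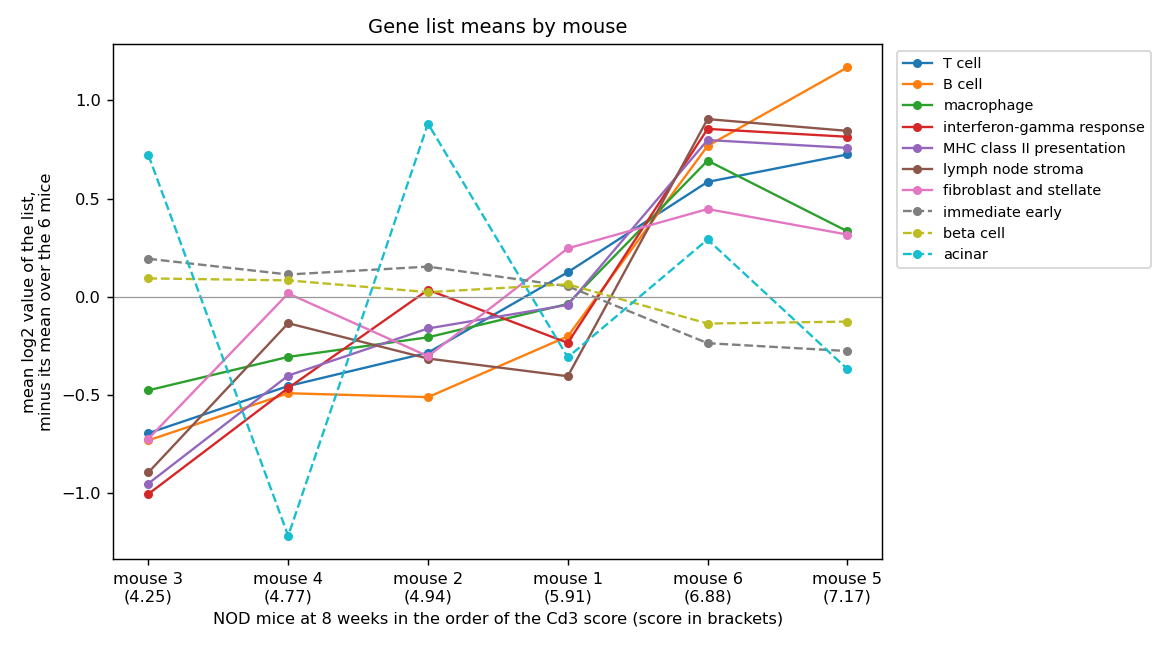
Mean log2 value of 10 gene lists in each NOD mouse, less the mean of that list over the 6 mice, with the mice in the order of the Cd3 score. Immune lists climb to the right, though the interferon-gamma list is lower in mouse 1 than in mouse 2. The beta cell line stays within 0.23 log2 units, and the acinar line moves over 2.1 log2 units without following the order. The T cell mean includes Cd3g, Cd3d and Cd3e, which define the score.

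No beta cell gene passed the test. Of 26 beta cell genes 0 rose and 0 fell by limma, and 4 of 26 had an unadjusted p under 0.05 (10.7% of all genes). All 26 slopes were negative, between -0.19 and -0.01, with a median of -0.07 (all genes -0.01). Over all genes tested 11142 of 19935 slopes were negative. Ins2 read 12.52, 12.55, 12.61, 12.49, 12.46 and 12.48 in the order of the score, a slope of -0.03 (95% interval -0.14 to 0.08), and Rag1ko mice read 12.44 to 12.66. Such values are near the top of the scale, where 13.54 is the highest of any probe set in these 6 arrays. Iapp, the amyloid peptide secreted with insulin, had a slope of -0.02 (-0.14 to 0.10) and the glucose transporter Slc2a2 one of -0.03 (-0.15 to 0.10). Transcription factors of beta cells lay a little lower, with Pdx1 at -0.09 (-0.22 to 0.04), Nkx6-1 at -0.12 (-0.24 to -0.01) and Nkx2-2 at -0.17 (-0.28 to -0.05), and Mafa, which was dim at 5.33 to 6.25, at -0.07 (-0.30 to 0.16). The most negative was the fatty acid receptor Ffar1, 7.43 to 8.14, at -0.19 (-0.34 to -0.04; limma adjusted p 0.28). The mean of the list was 9.60 to 9.67 in mice 1 to 4 and 9.45 and 9.44 in mice 5 and 6, a range of 0.23. The mean of the B cell list moved by 1.90. That of the T cell list moved by 1.43, but it includes Cd3g, Cd3d and Cd3e, which define the score. With each array centred on its median all 26 slopes were still negative (median -0.10). The median of all genes was then -0.04, and 13848 of 19935 slopes were negative.

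Other endocrine and ER stress genes did not pass either. Of 11 genes of alpha, delta and other endocrine cells 0 rose and 0 fell by limma (1 of 11 at an unadjusted p under 0.05), with Gcg at -0.02 (95% interval -0.13 to 0.09), Sst at -0.01 (-0.12 to 0.11) and Ppy at 0.04 (-0.08 to 0.16). Of 19 genes of the unfolded protein response 0 rose and 0 fell (1 of 19 at an unadjusted p under 0.05). All 19 slopes were negative, with a median of -0.07, the same as for the beta cell list. The chaperone Hspa5 stayed between 10.95 and 11.23 and Ddit3, which encodes CHOP, between 7.72 and 8.20.

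Exocrine transcripts varied widely, but in another order of the mice. Of 27 acinar genes 0 rose and 0 fell by limma (1 of 27 at an unadjusted p under 0.05), with a median slope of -0.13. Cpa1, a carboxypeptidase of pancreatic juice, read 11.35, 8.92, 11.10, 9.77, 10.76 and 9.86 in the order of the score, a range of more than 2 log2 units with a slope of -0.15 (95% interval -0.73 to 0.43). Prss2, a trypsinogen, was likewise highest in mice 2 (11.17) and 3 (10.90) and lowest in mouse 4 (8.91), with a slope of -0.11 (-0.62 to 0.41). The intervals of the enzymes are wide, so a moderate slope in either direction could not be detected. Amy1 (3.74 to 4.45) and the acinar factor Ptf1a (3.51 to 3.98) were near the bottom of the scale in all mice. The mean of the acinar list was 8.80, 6.86, 8.96, 7.77, 8.37 and 7.71 in the order of the score. With this mean as a second term 386 genes rose and 17 fell, against 403 and 22 without it. Reg2, which islets and acinar cells make under stress, ran from 4.59 in mouse 4 to 8.66 in mouse 2; of 7 Reg genes and 10 duct genes 0 and 0 passed in either direction (also 0 and 0 at an unadjusted p under 0.05).

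The genes that fell were led by immediate early genes, which cells switch on within minutes of a stimulus. Of 15 such genes 4 fell (background 0.11%) and 0 rose, with a median slope of -0.16. Fosb read 10.17, 10.10, 9.82, 9.60, 9.09 and 8.56 in the order of the score, exactly the reverse order (rho -1, exact permutation p 0.0028, 0.36 after adjustment), with a slope of -0.50 ± 0.07 (limma adjusted p 0.0053). Nr4a1 fell by 0.49 ± 0.07 per unit of score, from 8.56 in mouse 3 to 6.99 in mouse 6. Fos stayed between 9.14 and 9.30 in mice 1 to 4 and was 8.15 and 8.03 in mice 6 and 5 (-0.45 ± 0.08), and Ier2 had a slope of -0.31 ± 0.06. Npas4, a neuronal type of immediate early gene that depolarized beta cells also express, had the lowest slope of all named genes, -0.58 ± 0.07, with 7.05 in mouse 3 and 5.18 in mouse 6. Jun (-0.20 ± 0.05) and Egr1 (-0.28 ± 0.07) did not pass, and Egr2, which T cell receptor signals induce, had a positive slope of 0.26 ± 0.06 that did not pass. The Rag1ko mice, which lack T cells, spread widely in these genes, Fosb from 9.64 to 11.19 and Nr4a1 from 7.54 to 9.52. The calls of Fosb and Npas4 held in every fit without 1 mouse, and that of Nr4a1 was lost without mouse 3, 5 or 6, and those of Fos and Ier2 were kept without mouse 1 alone.

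The other named genes that fell were Nynrin, Ube2u, Pisd-ps2, Rnf138rt1, Slc10a1, Zfp821 and Plcxd2, with slopes of -0.47 to -0.31. Nynrin is an example of a gene with a wide background: it ran from 5.53 to 7.35 in NOD and from 5.43 to 8.73 in the Rag1ko mice. Slc10a1, a bile acid transporter best known from liver, ran from 3.60 in mouse 6 to 4.67 in mouse 3 at the dim end of the scale. Of the 22 genes that fell, mice 5 and 6 were the lowest 2 in 20, against 2088 of all 19935 genes. That count is partly fixed, because the 22 were chosen for falling with the score. Of 10 housekeeping genes 0 rose and 0 fell by limma (1 of 10 at an unadjusted p under 0.05), with slopes between -0.15 (Tbp) and 0.16 (Actb).

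The number of genes above the Rag1ko range also differed along the gradient. Of the 403 genes that rose, 104 (25.8%) were above the highest of the 6 Rag1ko mice in mouse 3, 225 (55.8%) in mouse 4, 240 (59.6%) in mouse 2, 346 (85.9%) in mouse 1, and 399 (99%) in mouse 6 and in mouse 5. Over all genes tested the share stayed between 13.7% and 17.7% in every mouse and followed no order. In mouse 3, with the lowest score, most of the 403 were not above that range, among them Ubd at 3.11, while 7 of the 8 interferon-gamma genes that rose were: Cxcl9 and Gbp4, for example, had 7.77 and 6.04 against Rag1ko values of at most 4.25 and 4.59. The 403 genes were chosen on their rise within NOD, so that order is partly fixed by the choice, and no test is given.

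**Figure D5:**
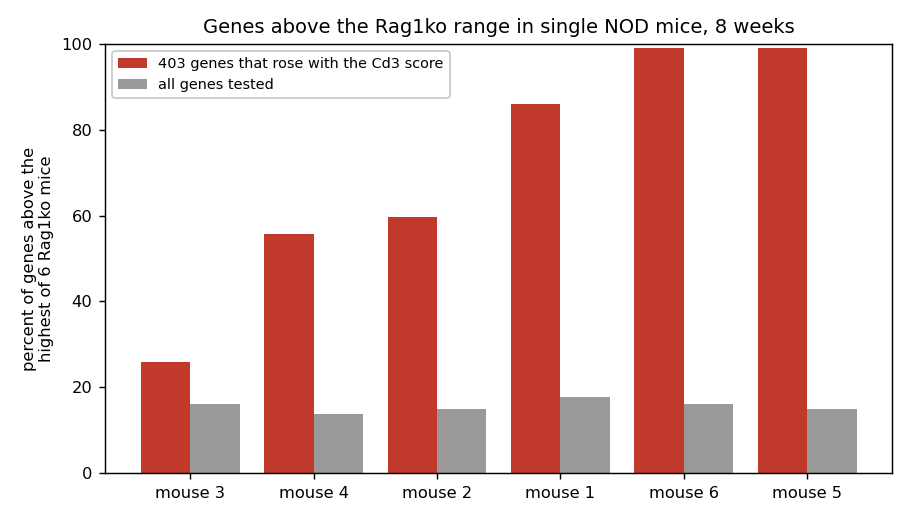
Percent of genes whose value in a single NOD mouse exceeds the highest of the 6 Rag1ko mice of 8 weeks, for the 403 genes that rose with the Cd3 score and for all 19935 genes tested, with the mice in the order of the score and the axis starting at 0. The first share runs from 25.8% in mouse 3 to 99% in mice 6 and 5, and the second stays between 13.7% and 17.7%.

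The 2 mice with the highest Cd3 scores differed in which lists were higher. Mouse 5, with the highest Cd3 score, was above mouse 6 in 14 of 19 B cell genes, and mouse 6 above mouse 5 in 18 of 22 macrophage genes, 9 of 9 natural killer cell genes and 13 of 16 cytotoxic genes; over all genes mouse 5 was above mouse 6 in 9401 and below it in 10531. Ms4a1 was 6.06 in mouse 5 and 5.13 in mouse 6, Blnk, an adaptor of the B cell receptor, 5.77 and 4.48, and Mzb1 6.88 and 5.75. In the other direction Nkg7 was 6.46 in mouse 5 and 7.94 in mouse 6, Cst7 4.57 and 5.72, and Lyz1 6.54 and 7.61. The median difference, mouse 5 less mouse 6, was 0.37 over the B cell list and -0.37 over the macrophage list, and the acinar list, at -0.72, was also higher in mouse 6. These are values of 1 mouse each, with no test.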

How the data were processed

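Islet RNA of 27 mice was hybridised to Affymetrix whole-transcript arrays. The deposited table holds log2 values of 30177 probe sets, which the authors normalized with RMA in Arraystar, per the series text; the submitters' processing notes also name Affymetrix Expression Console and mm9 without a role. Tool versions, scan dates and batches are not stated. RMA makes the arrays' distributions alike, so slopes are relative to the array as a whole.

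Probe sets with 1 gene symbol (21789) were kept; 1621 with several and 6767 with none were left out. RefSeq (GRCm38.p6) held 21698 of them by Entrez identifier. Of several probe sets of a gene (999 genes) the one with the highest mean was used. Some genes are not analysed here.

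Slopes on the Cd3 score were fitted over the 6 NOD arrays of 8 weeks with limma 3.58.1 (R 4.3.3; 4 residual and 5.25 prior degrees of freedom), and r and rho tested by exact permutation. The script was checked on simulated data. The mice are biological replicates per the series text. The members, the 28 gene lists, the alternatives and the rule for naming genes were chosen with earlier results of these data known. The rule names set genes of T, B, myeloid, endocrine and acinar cells, the 12 highest and 12 lowest slopes among genes that passed, the 10 genes most like the score and up to 4 members of each list by slope, with predicted genes, clones, small RNAs and genes of immunoglobulin and T cell receptor segments left out of the ranked parts; other genes named were chosen after their values were seen.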

Additional observations from a re-analysis of the deposited data

Results flagged for a closer look

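Of the named genes and list means, 1 had a sample far from the others of its group. Irx2, a transcription factor of alpha cells, read 6.1 in mouse 5, below the next lowest mouse at 6.66; the gap is 0.796 of the range over the 6 mice, above the 95% critical value of Dixon's test. Chance flags about 1 in 20 such groups.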

How the results depend on the processing

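No paired analysis was possible because 1 group alone enters the fit; a term for the number set stands in the report (138 genes rose and 3 fell).

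By limma, the count of genes that rose was 403 and fell to 255 without dim genes and to 0 without mice 5 and 6, and it lay between 145 and 453 without single mice. The count of genes that fell was 22, with 36 after centring each array, 44 with a trended and robust variance, 0 without mice 5 and 6, and 3 to 25 without single mice. With Spearman's rho in place of r, 1326 genes in place of 1993 had an exact permutation p under 0.05. The median slope of the beta cell list was -0.07, with -0.1 for Cd3e alone as the score, -0.11 for other T cell genes as the score, -0.1 after centring, and -0.09 to -0.06 without single mice. The acinar median of -0.13 ran from -0.41 to 0.08 without single mice, and was -0.45 without mice 5 and 6 and 0.18 with the number set as a term. The cause was not tested.

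Of 112 named genes that passed, 1 turned its sign in any alternative, Mfge8 without mice 5 and 6 (-0.02). Genes that did not pass turned sign as follows. Without mice 5 and 6 the slopes were Batf3 -0.04, Blk -0.16, Cd79a -0.15, Egr1 0.04, Glycam1 -0.54, Mafa 0.33, Pax5 -0.1, Pdx1 0.07, S100a8 -0.04, Slc2a2 0.03, Socs1 -0.01, Sst 0, Usp18 -0.02 and Xbp1 0.06. Centring gave Ccl3 -0.01, Cd163 -0.02, Mx1 -0.02, Pax5 0, Prdm1 -0.03, Ptf1a -0.03 and Socs1 -0.01. The number set as a term gave Cpa1 0.12, Mafa 0.04, Pax5 -0.01, Prss2 0.2 and Xbp1 0.01. Cd3e alone as the score gave Prdm1 0 and Ptf1a -0.02, other T cell genes as the score Sst 0, and the acinar mean as a second term Prss2 0.02. Without single mice the slopes ran over Acta2 -0.04 to 0.16, Amy1 0 to 0.12, Ccl3 -0.1 to 0.18, Cd163 -0.02 to 0.04, Cpa1 -0.41 to 0.15, Cxcl2 -0.09 to 0.23, H2-Ea 0 to 0.1, Irx2 -0.2 to 0, Kdr -0.02 to 0.09, Mafa -0.11 to 0.02, Mx1 -0.03 to 0.08, Pax5 -0.09 to 0.09, Prdm1 -0.01 to 0.03, Prss2 -0.35 to 0.08, Ptf1a -0.08 to 0.09, Reg2 -0.12 to 0.72, Slc2a2 -0.07 to 0.02, Sst -0.03 to 0.02 and Xbp1 -0.04 to 0.02.

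With 6 mice, the calls depend on single mice at both ends of the gradient: 145 genes rose without mouse 3, 162 without mouse 5 and 172 without mouse 6. No detection call accompanies the deposited values, so how far a dim gene lies above background is not known here.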

Other observations

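Some of the genes that rose most belong to none of the lists and were chosen after their values were seen. Coro1a, an actin-binding protein of leukocytes, read 5.48, 5.72, 6.27, 6.64, 8.12 and 8.32 in the order of the Cd3 score (0.99 ± 0.08, limma adjusted p 7.5e-04), and the lowest mouse was above the Rag1ko range of 4.38 to 5.0. Dock2, an activator of Rac in migrating lymphocytes, stayed at 3.41 and 3.47 in mice 3 and 4, inside the Rag1ko range of 3.24 to 3.59, and reached 6.02 and 6.08 in mice 6 and 5 (0.98 ± 0.09). Lcp1 (0.87 ± 0.08) and Lsp1 (0.88 ± 0.09) rose as well. Sting1, an adaptor in the sensing of cytosolic DNA, rose from 4.80 in mouse 3 to 6.97 in mouse 6 (0.78 ± 0.07), with the Rag1ko mice at 3.91 to 4.14.

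Dpt, a matrix protein of fibroblasts, and C1s1, a protease of the classical complement pathway, were lowest in mouse 3, as Dcn was. Dpt read 5.0 in mouse 3, 6.26 to 7.28 in mice 2, 4 and 1, and 7.86 and 8.05 in mice 6 and 5 (0.89 ± 0.12). C1s1 read 2.79 in mouse 3, inside the Rag1ko range of 2.72 to 3.30, and 4.43 to 6.22 in the other 5 NOD mice (0.87 ± 0.18). For both, the step from mouse 3 to the next mouse was the largest along the gradient.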
